A study of Mus musculus with 12 samples.

Results

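The libraries described here are those of the adult mouse paraventricular nucleus in which the immediate early gene Fos was high, set against those in which it was low. The libraries were chosen by their measured Fos level: 5 of the 12 in the series had Fos at 15 RPKM or more (read density per transcript length and library depth, the deposited unit) and made up the high-Fos class, and the other 7 made up the low-Fos class. Fos is therefore given as a description without a test, and the tests concern genes other than Fos. The class is a property read from the tissue and not a treatment, so the comparisons say which genes went with Fos among these animals.

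All animals were adult C57/Bl6:129S6/SvEvTac hybrid males, 18 to 20 weeks old, grown from microinjected zygotes that were carried by CD1 surrogate dams. In the miR group the zygotes had received a mixture of 9 miRIDIAN microRNA mimics in DPBS, each mimic at 0.11 ng/uL of a total of 1 ng/uL: miR-375, miR-698, miR-204, miR-29c, miR-32, miR-30c, miR-30a, miR-532-3p and miR-193-5p. In the PBS group they had received DPBS alone. Each group held 6 animals with 1 library each, numbered 1 to 6 in miR and 7 to 12 in PBS. The high-Fos class held miR 2, miR 6, PBS 8, PBS 10 and PBS 12, and the low-Fos class held 4 miR and 3 PBS libraries. Brains were taken under isoflurane and the nucleus was punched with a needle of 1 mm from 2 slices of 300 µm, so the RNA is that of a bulk piece of tissue. The labels give neither the time of day of collection, nor the handling before it, nor shared litters. In bulk tissue, fewer cells of a type and less RNA per cell cannot be told apart.

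Immediate early genes are the genes that neurons transcribe within minutes of strong synaptic input, without making new protein first. Calcium entry and the ERK and protein kinase A pathways act on transcription factors such as CREB and SRF, which already sit at these genes, and the messages decay quickly once the input ends. Part of the genes encode transcription factors (the Fos, Jun, Egr, Nr4a and Npas4 families), and others encode effectors at the synapse or feedback regulators of kinases and of growth. In the paraventricular nucleus, which houses the oxytocin, vasopressin, corticotropin-releasing hormone and thyrotropin-releasing hormone neurons, Fos is widely used as a mark of neurons recently activated by stress, osmotic challenge or feeding state.

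CREB binds the cyclic AMP response element (CRE), whose short form is TGACG and whose full palindrome is TGACGTCA. Promoter windows of the 250 bases before the gene start were taken from RefSeq (GRCm38.p6) for Fos and 7 of the genes reported below as higher with Fos: Btg2, Dusp1, Fosb, Junb, Klf4, Npas4 and Nr4a1. No window is given for the other 3 higher immediate early genes, Egr1, Arc and Ier2. The short form, read on both strands, was present in 8 of these 8 windows, against 17.8% of the 32851 mouse promoter windows of the same length. The palindrome, which holds the short form on each strand, was present in 2 of them, Btg2 and Dusp1, against 1.55% of all windows. The CArG box bound by SRF had no match within these windows, against 1.47% of all, and TATAAA was found in the Fos window, against 12.4% of all. The following windows are shown because they carry this motif in genes with large differences below, beside Fos itself; they run 5′ to 3′ on the strand of the gene, with TGACG or its reverse complement in capitals.
Fos, chr12:85473640-85473889, plus strand: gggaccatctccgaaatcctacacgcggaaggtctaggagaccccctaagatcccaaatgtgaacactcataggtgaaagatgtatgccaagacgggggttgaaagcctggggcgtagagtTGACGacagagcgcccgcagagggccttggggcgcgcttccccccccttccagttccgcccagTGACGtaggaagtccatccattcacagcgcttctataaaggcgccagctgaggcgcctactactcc
Npas4, chr19:4989972-4990221, minus strand: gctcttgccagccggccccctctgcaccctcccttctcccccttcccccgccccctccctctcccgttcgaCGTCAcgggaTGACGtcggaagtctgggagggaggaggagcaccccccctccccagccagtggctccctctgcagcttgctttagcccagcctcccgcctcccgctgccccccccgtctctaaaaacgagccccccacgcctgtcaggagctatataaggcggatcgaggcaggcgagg
Nr4a1, chr15:101266596-101266845, plus strand: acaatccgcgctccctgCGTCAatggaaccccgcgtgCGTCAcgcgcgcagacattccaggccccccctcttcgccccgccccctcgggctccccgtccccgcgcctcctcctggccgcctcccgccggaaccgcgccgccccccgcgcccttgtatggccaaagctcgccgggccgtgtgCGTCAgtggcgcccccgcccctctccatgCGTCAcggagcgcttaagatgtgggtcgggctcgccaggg
Btg2, chr1:134079156-134079405, minus strand: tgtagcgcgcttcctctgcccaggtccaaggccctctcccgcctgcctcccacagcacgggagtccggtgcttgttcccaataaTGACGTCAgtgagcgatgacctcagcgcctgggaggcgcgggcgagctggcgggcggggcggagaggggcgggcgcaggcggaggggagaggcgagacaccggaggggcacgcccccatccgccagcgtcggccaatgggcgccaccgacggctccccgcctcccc
Dusp1, chr17:26508473-26508722, minus strand: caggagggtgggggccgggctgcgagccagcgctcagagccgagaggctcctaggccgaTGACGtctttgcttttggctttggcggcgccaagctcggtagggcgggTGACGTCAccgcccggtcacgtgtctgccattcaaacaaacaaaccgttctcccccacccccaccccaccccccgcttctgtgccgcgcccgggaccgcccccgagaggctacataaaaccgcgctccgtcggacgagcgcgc
In Fos the motif began 129 and 66 bases before the gene start, and in Nr4a1 it occurred 4 times, at 233, 213, 69 and 40 bases before the start. A match in these letters is a description of the sequence and does not show that the site is bound.

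Fos (NM_010234, mm9 chr12:86814851-86818219, plus strand) was at 57.3 RPKM in miR 2, 46.5 in miR 6, 57.3 in PBS 8, 19.6 in PBS 10 and 32.5 in PBS 12. Among the 7 low-Fos libraries it was lowest at 2.19 RPKM in PBS 9, had a median of 6.41 and was highest at 9.12 in miR 3. The values on either side of the border were thus 19.6 in PBS 10 and 9.12 in miR 3, and no library lay between them. Both injection groups held both classes. Depth, read from the size of 1 read in short intronless rows, ran from 22.8 to 45.1 M reads per library. It was 30.5 ± 5.91 M reads (SD, n = 5) in the high-Fos class and 31.5 ± 6.90 M reads (SD, n = 7) in the low-Fos class (2-sided exact permutation test within injection groups, p = 0.723 over 300 relabelings). Transcription factors that define the punched nucleus were present in all 12 libraries: Sim1 lay between 5.08 and 11.3 RPKM and Otp between 14.1 and 38.0 RPKM, beside Oxt at 1295 RPKM or more throughout. Meg3, a nuclear noncoding RNA, divided the PBS libraries: it was between 158 and 316 RPKM in PBS 8, 9, 10 and 12 and between 49.9 and 68.1 RPKM in the other 8 libraries. The 3 high-Fos libraries of PBS are thus all of high Meg3, and values are also given for the 8 libraries of low Meg3 alone where they change a call. Of those 8, only miR 2 and miR 6 are of high Fos. With injection group as covariate, the differences there therefore equal those within miR.

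Over the genome, few genes passed the test for a difference by Fos class, and 10 immediate early genes were among those that were higher. With injection group as covariate, 94 of 13272 genes other than Fos passed the test (0.708%; limma on log2(RPKM + 0.5), Benjamini-Hochberg adjusted p below 0.05). Of these, 19 were higher in the high-Fos libraries (0.143% of all tested) and 75 were lower (0.565%). All differences below are on this log2 scale as high minus low Fos, with their standard errors, and weakly expressed genes appear compressed on it. The lists of immediate early transcription factors and of immediate early effectors held 43 tested genes besides Fos, of which 10 were higher and 1 was lower. Their median difference was 0.17, beside 0.004 over all tested genes, and 36 of the 43 had a positive value. In 10 of the 43, all 5 high-Fos libraries lay above all 7 others, an arrangement found in 65 genes of the whole table (0.49%). When each library was left out in turn, 7 of the 19 higher genes passed every time, namely Npas4, Egr1, Fosb, Btg2, Nr4a1, Arc and Dusp1, as did 25 of the 75 lower genes. A further 9 members lay below the minimum level of 1 RPKM and are described separately. That level is a mean over all libraries. Fosb, under 1 RPKM in every low-Fos library, reached it only through the high-Fos class, and Npas4 had a low-Fos median below it. With no minimum level, 8 of the 10 still passed as higher, Fosb and Npas4 among them (limma adjusted p = 0.00062 and 0.000549).

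Among the transcription factors, 7 of 20 tested members were higher with Fos and Jund was lower. Npas4, a neuron-restricted factor that responds to calcium entry (mm9 chr19:4984355-4989971, minus strand), showed the largest difference of all tested genes. Its level was 9.62 RPKM in miR 2, 7.44 in miR 6, 20.3 in PBS 8, 7.34 in PBS 10 and 12.4 in PBS 12, against 0.529 at the lowest, 0.745 at the median and 1.76 at the highest in the low-Fos class. The classes did not overlap, and the difference was 2.93 ± 0.25 (SE, 7.64-fold, limma adjusted p = 4.75e-05). Egr1, a zinc finger factor used beside Fos as a mark of activity, was at 43.0 RPKM in miR 2, 39.98 in miR 6, 46.3 in PBS 8, 21.4 in PBS 10 and 28.3 in PBS 12. Low-Fos libraries had Egr1 between 3.95 and 10.2 RPKM with a median of 7.31, again without overlap. Its difference was 2.29 ± 0.19 (SE, 4.89-fold, limma adjusted p = 4.75e-05).

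Fosb, the closest relative of Fos and like it a partner of Jun proteins in the AP-1 complex (mm9 chr7:19888045-19895394, minus strand), was at 5.46 RPKM in miR 2, 3.81 in miR 6, 6.08 in PBS 8, 1.92 in PBS 10 and 3.10 in PBS 12. The low-Fos class had 0.340 at the lowest, 0.417 at the median and 0.636 at the highest, so even PBS 10 stood apart from it. The difference was 2.25 ± 0.20 (SE, 4.74-fold, limma adjusted p = 6.17e-05). Nr4a1, an orphan nuclear receptor also known as Nur77 that acts on the Crh and Pomc genes in stress (mm9 chr15:101097277-101105225, plus strand), was at 18.8 RPKM in miR 2, 10.5 in miR 6, 13.1 in PBS 8, 6.20 in PBS 10 and 9.69 in PBS 12. It varied little in the low-Fos class, from 2.43 to 3.13 RPKM with a median of 2.75. The difference was 1.86 ± 0.18 (SE, 3.63-fold, limma adjusted p = 0.000157).

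Junb, an immediate early gene of the Jun family (mm9 chr8:87500808-87502647, minus strand), was at 18.6 RPKM in miR 2, 15.5 in miR 6, 32.5 in PBS 8, 11.6 in PBS 10 and 19.8 in PBS 12, against 3.18 to 10.4 RPKM (median 7.14) with low Fos. The classes lay close together at their border, and the difference of 1.45 ± 0.29 (SE) passed the threshold narrowly (limma adjusted p = 0.0419). Klf4, a Krüppel-like factor, was at 2.44, 2.55, 2.90, 1.98 and 2.35 RPKM in miR 2, miR 6, PBS 8, PBS 10 and PBS 12, and at 1.13 to 1.87 RPKM (median 1.24) in the low-Fos libraries, a difference of 0.67 ± 0.11 (SE, limma adjusted p = 0.00996). Ier2, a short intronless immediate early gene, was at 2.44, 2.50, 2.87, 1.99 and 2.14 RPKM in the same order, and at 1.1 to 1.97 RPKM (median 1.27) with low Fos, a difference of 0.60 ± 0.12 (SE, limma adjusted p = 0.0417). Both showed separate classes with a far smaller difference than Npas4 or Egr1. Within the 8 libraries of low Meg3, where 58 genes passed (0.439%), 8 of them higher (0.0606%) and 50 lower (0.378%), Junb (adjusted p = 0.0849), Klf4 (0.0604) and Ier2 (0.152) did not pass, with differences of 1.31, 0.78 and 0.69. Junb lost its call when any of 10 libraries was left out (adjusted p up to 0.112) and Ier2 with any of 9 (up to 0.146), whereas Klf4 lost it without miR 6 alone (0.63, adjusted p = 0.0592).

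**Figure D1:**
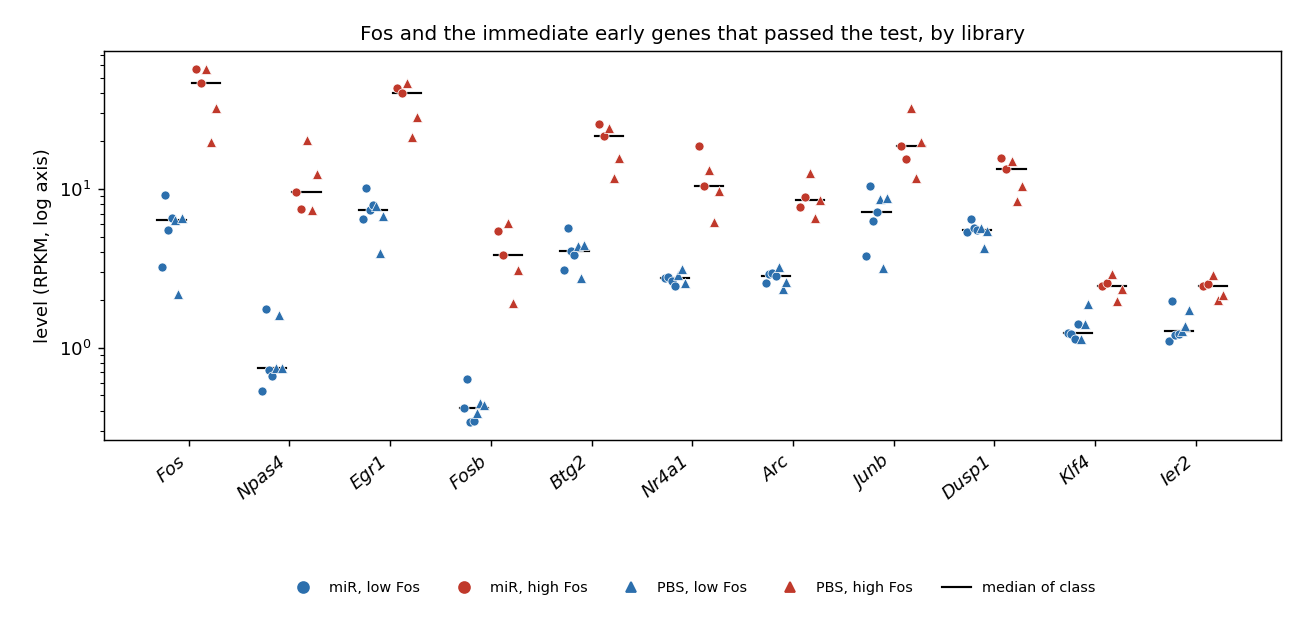
Level in RPKM (log axis) of Fos and of the 10 immediate early genes that were higher with Fos, for each of the 12 libraries; circles are miR, triangles are PBS, red is high Fos, blue is low Fos, and bars are class medians. The Fos values set the classes, and in each of the other 10 genes all 5 red points lie above all 7 blue points.

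Of the 23 tested effectors and feedback genes, 3 were higher and none was lower. Arc, whose protein acts at the synapse in the removal of AMPA receptors (mm9 chr15:74499513-74503000, minus strand), was at 7.68 RPKM in miR 2, 8.83 in miR 6, 12.5 in PBS 8, 6.55 in PBS 10 and 8.53 in PBS 12. The low-Fos libraries lay between 2.33 and 3.23 RPKM with a median of 2.84. The difference was 1.48 ± 0.13 (SE, 2.79-fold, limma adjusted p = 4.75e-05), and every high-Fos library had at least 6.55 RPKM. Btg2, an antiproliferative cofactor of messenger RNA deadenylation (mm9 chr1:135971442-135975732, minus strand), was at 25.7 RPKM in miR 2, 21.6 in miR 6, 24.3 in PBS 8, 11.7 in PBS 10 and 15.6 in PBS 12, against 2.76 to 5.69 RPKM (median 4.04). The difference was 2.18 ± 0.18 (SE, 4.53-fold, limma adjusted p = 4.75e-05). Dusp1, the phosphatase that switches off MAP kinases (mm9 chr17:26642536-26645417, minus strand), was at 15.6, 13.3, 14.9, 8.45 and 10.4 RPKM in miR 2, miR 6, PBS 8, PBS 10 and PBS 12, against 4.25 to 6.48 RPKM (median 5.53), a difference of 1.14 ± 0.12 (SE, limma adjusted p = 0.000261). Btg2 and Dusp1 are the genes whose windows above hold the full palindrome. For Egr1, Btg2, Arc, Fosb, Nr4a1, Dusp1 and Npas4 the call also held with a covariate for thalamic markers and in the 8 libraries of low Meg3. The latter rests on miR 2 and miR 6 as the only high-Fos libraries and repeats the difference within miR.

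Within the classes, the libraries at the ends of the Fos order were often, but not always, at the ends in these genes. PBS 10, which had the lowest Fos of the class, was the lowest of the class in 10 of the 10 higher genes. PBS 8 was the highest in 7 of them and miR 2 in 3, and these libraries had the highest Fos. In the low-Fos class miR 3, with the highest Fos of that class, was also the highest in 7 of the 10, and PBS 9, with the lowest Fos, was the lowest in 5 and the highest in 1. The other 5 lowest places of that class fell to miR 1 (2), miR 4 (2) and miR 5 (1). These ranks are over libraries whose order in Fos was known beforehand and carry no test. The calls depended on the side of the border to which miR 3 belonged: counted as a high-Fos library, it left Npas4 as the 1 gene of 13272 that passed. The differences were then 2.02 for Egr1, 1.94 for Btg2, 1.95 for Fosb and 1.26 for Arc (adjusted p = 0.0691, 0.0691, 0.0957 and 0.125). With PBS 10 counted as low, 14 genes passed, and 10 immediate early genes were among the higher, though not the same 10. Junb (1.52, limma adjusted p = 0.0634) and Ier2 (0.60, 0.0887) no longer passed. In their place Gem (0.75, 0.0235) and Sik1 (0.55, 0.0180), described next, passed as higher.

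For the other members the differences were smaller and did not pass. Gem, a small GTPase that inhibits calcium channels, was at 4.34 RPKM in miR 2, 2.79 in miR 6, 2.47 in PBS 8, 1.43 in PBS 10 and 2.24 in PBS 12, against 1.33 to 1.69 RPKM (median 1.51). Its classes overlapped through PBS 10, and the difference of 0.63 ± 0.15 (SE) did not pass (limma adjusted p = 0.0900). Sik1, a kinase that restrains CREB coactivators, was at 8.99, 6.61, 6.34, 4.30 and 6.51 RPKM in the order miR 2, miR 6, PBS 8, PBS 10, PBS 12, against 4.20 to 5.54 RPKM, a difference of 0.44 ± 0.11 (SE, limma adjusted p = 0.104). Without PBS 10 both passed: Gem differed by 0.76 (adjusted p = 0.0179) and Sik1 by 0.54 (adjusted p = 0.0143). Gem also passed within miR (0.99, limma adjusted p = 0.0295), in the libraries of low Meg3 (0.0242) and after correction for GC content (0.65, 0.0438). It did not pass within PBS (0.31, limma adjusted p = 0.300), and Sik1 passed in none of these 4 settings. Csrnp1, a nuclear factor induced by growth signals, differed by 0.37 ± 0.12 (SE, adjusted p = 0.237), and Zfp36, which destabilizes messages with AU-rich elements, by 0.30 ± 0.09 (SE, adjusted p = 0.194). The remaining tested members, leaving aside Jund and the Nr4a genes, lay between -0.28 for Ier5 and 0.33 for Cyr61. Jun, the founding AP-1 partner of Fos, showed -0.03 ± 0.09 (SE), with 12.4 to 18.4 RPKM in the high-Fos class and 13.6 to 15.8 RPKM in the low. Homer1, whose short activity-induced form shares this row with the constitutive form as far as exons are shared, showed -0.08 ± 0.07 (SE).

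The families did not move as blocks. Of the Nr4a receptors, Nr4a1 was higher, whereas Nr4a3 was at 1.23, 1.21, 1.22, 0.778 and 0.966 RPKM in miR 2, miR 6, PBS 8, PBS 10 and PBS 12, against 1.17 to 1.91 RPKM (median 1.61). That difference of -0.38 ± 0.11 (SE) did not pass (limma adjusted p = 0.154), and neither did that of Nr4a2, at -0.44 ± 0.20 (SE, adjusted p = 0.373). Among Jun genes, Junb was higher and Jun near 0, while Jund, a constitutive member that dampens AP-1 activity in many cells (mm9 chr8:73221638-73224515, plus strand), was at 15.7 RPKM in miR 2, 13.1 in miR 6, 23.5 in PBS 8, 18.0 in PBS 10 and 24.7 in PBS 12. With low Fos it lay between 27.9 and 39.4 RPKM (median 35.4), above every high-Fos library, and the difference was -0.88 ± 0.12 (SE, limma adjusted p = 0.00412). Jund lost its call with Fos as a continuous term (adjusted p = 0.0788), with PBS 10 counted as low (-0.71, adjusted p = 0.178) and with miR 3 counted as high (-0.61, adjusted p = 0.310). Its transcript has a GC content of 67.1%. After each library was corrected for its trend with GC content, the difference of Jund was -0.80 and passed (limma adjusted p = 0.000376).

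Under the minimum of 1 RPKM, 9 members were not in the main test: Egr2, Egr3, Egr4, Atf3, Maff, Dusp5, Ptgs2, Ctgf and Amigo3. Egr2 was at 0.309 RPKM in miR 2, 0.570 in miR 6, 0.390 in PBS 8, 0.103 in PBS 10 and 0.203 in PBS 12, against 0.0129 to 0.0381 RPKM in the low-Fos class. With no minimum level it passed (0.63 on the log2 scale, limma adjusted p = 0.0304, where 12 genes or 0.0586% passed as higher), although the pseudocount of 0.5 RPKM exceeds nearly all of these values. Egr4 was at 0.629 to 2.29 RPKM against 0.365 to 0.643 RPKM, with an overlap through PBS 10, and did not pass (adjusted p = 0.181). The other 7 showed differences from 0.03 for Maff to 0.25 for Ptgs2, with adjusted p of 0.251 or more.

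**Figure D2:**
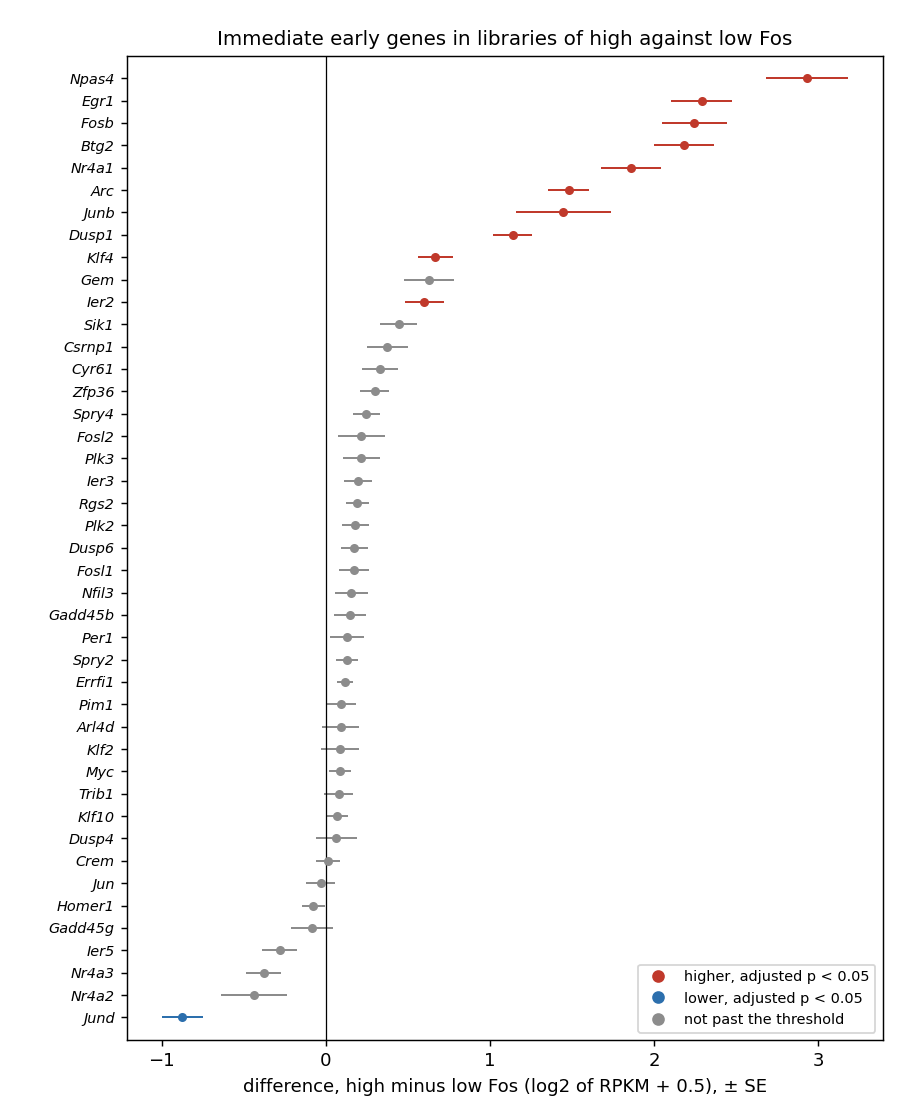
Difference between high-Fos and low-Fos libraries (log2 of RPKM + 0.5, injection group as covariate) with its standard error for the 43 tested immediate early genes other than Fos; red and blue mark genes past an adjusted p of 0.05. The values run from 2.93 for Npas4 to -0.88 for Jund, and 32 of the 43 did not pass.

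Genes upstream and downstream of this response gave no call in the main test. All 38 listed genes of calcium, ERK, CREB and SRF signalling were tested, and none passed, with a median of -0.03 and values from -0.41 for Mef2a to 0.20 for Crtc2. The members of smallest p were Elk1 and Prkar2b. Elk1 passed as lower in 1 of 30 alternatives, after GC correction (limma adjusted p = 0.0453), and Prkar2b in none. At an unadjusted p below 0.05, 7 of the 38 were found, where 1760 of all 13272 tested genes were (13.3%), the share against which such counts of other lists are to be read. Of 16 tested late activity-regulated genes, which follow the early factors by hours, none passed and 4 had an unadjusted p below 0.05. Their median was -0.16, and 13 of the 16 had a negative value, as did 6455 of all 13272 genes. Nptx2, a pentraxin that clusters AMPA receptors, was at 1.24 RPKM in miR 2, 0.644 in miR 6, 1.77 in PBS 8, 4.67 in PBS 10 and 1.19 in PBS 12, against 1.92 to 7.37 RPKM (median 3.30). The difference of -0.94 ± 0.35 (SE) did not pass (limma adjusted p = 0.282). Bdnf, the neurotrophin that sustains synaptic change, lay between 2.32 and 3.30 RPKM with high Fos and between 2.82 and 4.07 RPKM with low Fos (-0.17 ± 0.08, SE, adjusted p = 0.396). Vgf, a secretory peptide precursor induced by activity, lay between 39.9 and 74.3 RPKM and between 56.9 and 76.9 RPKM (-0.25 ± 0.14, SE, adjusted p = 0.453), and Slc2a3, the neuronal glucose transporter, differed by 0.13 ± 0.05 (SE, adjusted p = 0.278).

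The 9 other genes that were higher with Fos belong to neither immediate early list and had smaller differences, apart from the short noncoding rows. Ppp1r15a, which restarts translation after stress by directing a phosphatase to eIF2α, was at 8.11, 8.81, 9.27, 7.58 and 7.91 RPKM in miR 2, miR 6, PBS 8, PBS 10 and PBS 12, against 6.07 to 7.47 RPKM (median 6.64), a difference of 0.30 ± 0.06 (SE, limma adjusted p = 0.0462). Stac2, an adaptor of voltage-gated calcium channels, was at 4.57, 3.89, 5.07, 4.45 and 5.58 RPKM in the same order, against 2.76 to 3.71 RPKM, a difference of 0.47 ± 0.09 (SE, adjusted p = 0.0353). Cplx1, the complexin that controls synaptic vesicle fusion, was at 77.8 to 109 RPKM against 54.1 to 83.0 RPKM, with PBS 10 inside the low-Fos range (0.50 ± 0.10, SE, adjusted p = 0.0441). Iglon5, a cell adhesion protein (0.38), Pnkd (0.29), the mitochondrial cyclophilin Ppif (0.28) and the tryptase Tpsg1 (0.54) completed the protein-coding genes of the set. Tpsg1 lay at the edge of the minimum level: leaving out 1 library took its mean under 1 RPKM, so it was tested in 11 of the 12 leave-outs. Of these 9 only Mir409 and Stac2 are named by the rule, and the others were added to complete the count. Most of these calls were narrow: apart from Mir409, each was lost when any of 8 to 12 libraries was left out. Mir409 lost its call without miR 6 or PBS 7 (1.35 in each case, limma adjusted p = 0.0934 and 0.0512). It passed in 19 of 28 alternatives. Its call was also lost with a pseudocount of 0.1 RPKM, with no minimum level and with Fos as a continuous term. The same held with either border library moved, within miR and within PBS. Mir409 (1.43, adjusted p = 0.0189) and Snord12 (1.53, adjusted p = 0.0367) are very short rows that rest on few reads. The row of Mir409 lies inside that of Mirg, so their reads cannot be told apart. Stac2, Tpsg1, Ppif, Pnkd and Iglon5 had larger differences within PBS, whose high-Fos libraries also had high Meg3, than within miR, although the difference between the groups did not pass (limma interaction, adjusted p of 0.191 or more).

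With the classes as set, 75 genes were lower with Fos and 19 higher; this split turned with PBS 10 counted as low (3 lower, 11 higher) and within PBS (44 lower, 102 higher), and was even with Fos as a continuous term (11 and 11). Scand1, a SCAN-domain protein (mm9 chr2:156137582-156138440, minus strand), was at 2.52 RPKM in miR 2, 2.35 in miR 6, 3.42 in PBS 8, 2.61 in PBS 10 and 5.38 in PBS 12, against 7.60 to 15.3 RPKM (median 13.0). It had the largest difference among the 10 lower genes of smallest p (-1.87 ± 0.17, SE, limma adjusted p = 7.98e-05), and the classes did not overlap. Pcsk1n, the proSAAS inhibitor of the prohormone convertase PC1/3 (mm9 chrX:7496948-7501536, plus strand), was at 56.7 RPKM in miR 2, 45.7 in miR 6, 113 in PBS 8, 61.1 in PBS 10 and 124 in PBS 12, against 165 to 317 RPKM (median 248). The difference was -1.68 ± 0.21 (SE, adjusted p = 0.00145); Pcsk1n falls outside the rule for named genes and was picked after its values were seen. Scand1, Pcsk1n and the 9 lower genes described next passed with any library left out. Apart from Pcsk1n, which was not among the named genes run under other settings, these 10 lost their calls with PBS 10 counted as low and with miR 3 counted as high, and Gpr135 and 2310061J03Rik also with Fos as a continuous term.

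The smallest p of all lower genes was that of 0610039K10Rik, a noncoding transcript (mm9 chr2:163470586-163471536, plus strand), at 4.98, 4.17, 5.36, 5.04 and 5.40 RPKM in miR 2, miR 6, PBS 8, PBS 10 and PBS 12, against 9.14 to 11.1 RPKM (median 10.3). Its difference was -0.95 ± 0.07 (SE, limma adjusted p = 4.75e-05). C1qtnf4, a secreted C1q-like protein expressed in the hypothalamus, was at 6.69 to 13.3 RPKM against 16.5 to 24.1 RPKM (-1.14 ± 0.12, SE, adjusted p = 0.000250). Zfp771, a zinc finger protein, was at 3.40 to 5.99 RPKM against 7.45 to 11.4 RPKM (-1.10 ± 0.12, SE, adjusted p = 0.000263), and Gpr135, an orphan receptor, at 3.35 to 4.18 RPKM against 5.82 to 8.04 RPKM (-0.72 ± 0.08, SE, adjusted p = 0.000423). The other 5 named by smallest p were the unnamed transcripts 9430041J12Rik (-1.45), 4930413G21Rik (-1.67), 2310061J03Rik (-0.84), 9530052E02Rik (-0.83) and 4930539J05Rik (-1.19), none of which overlapped between the classes. Across all tested genes, 102 (0.769%) had every high-Fos library below every other.

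Further genes among the 75 were seen after the test and are named for what they are. They include 5 histone genes, such as H2afx (-0.43 ± 0.08, SE) and Hist1h4i (-0.65 ± 0.09, SE). These are 5 of the 17 tested genes whose symbols begin with Hist, H2a or H1f, where 0.565% of all tested genes were lower. Histone genes under other symbols were not part of that count. The transcription factors Sox2 (-0.30), Sox4 (-0.38), Id4 (-0.34) and Foxo3 (-0.39) were also among the 75. Sox2 lay between 19.9 and 24.1 RPKM with high Fos and between 23.9 and 29.3 RPKM with low Fos. Prlhr, the receptor of prolactin-releasing peptide, was at 1.38 to 2.10 RPKM against 2.24 to 3.48 RPKM (-0.54 ± 0.11, SE, limma adjusted p = 0.0476). Rps2 (-0.98) and Tpt1 (-1.09) are rows with many near-identical copies in the genome, and Atp6v0c and Atp6v0c-ps2, both at -0.61, are a gene and its copy, so these values are uncertain. Of the histone genes, Hist1h4i passed with any library left out, whereas H1fx lost its call without miR 1, miR 2 or miR 6 (-0.63, -0.61 and -0.54, adjusted p = 0.0594, 0.0865 and 0.0954). Hist3h2ba, Hist1h4h, H2afx, Sox2, Sox4, Prlhr and Atp6v0c lost their calls when any of 8 to 10 libraries was left out, and Foxo3 and Rps2 without miR 6 (-0.36 with adjusted p = 0.0718, and -0.95 with 0.0592).

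Both sets of called genes differed from all tested genes in structure. Absence of introns was judged from a transcript length near the genomic span of the row. By that measure, 23 of the 70 lower genes with a matched transcript had no intron (32.9%). The share was 3.92% of all tested genes with a matched transcript. Noncoding rows made up 25.3% of the 75, against 5.61% of all tested. Of the 19 higher genes, 4 had no intron (21.1%) and 2 were noncoding rows (10.5%); the sets were not tested against each other. The median GC content was 56.6% in either set, beside 50.6% over all tested genes. The lower genes' median transcript length was 1434 bases, beside 2865 over all and 2477 for the higher genes. After each library was corrected for its trend with GC content, 63 of the 75 lower and 18 of the 19 higher genes still passed. In the 8 libraries of low Meg3, 34 of the 75 and 7 of the 19 passed. With a covariate for the thalamus and cortex markers, 30 and 8 passed. The part of intronless structure and noncoding rows in the result was not tested.

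**Figure D3:**
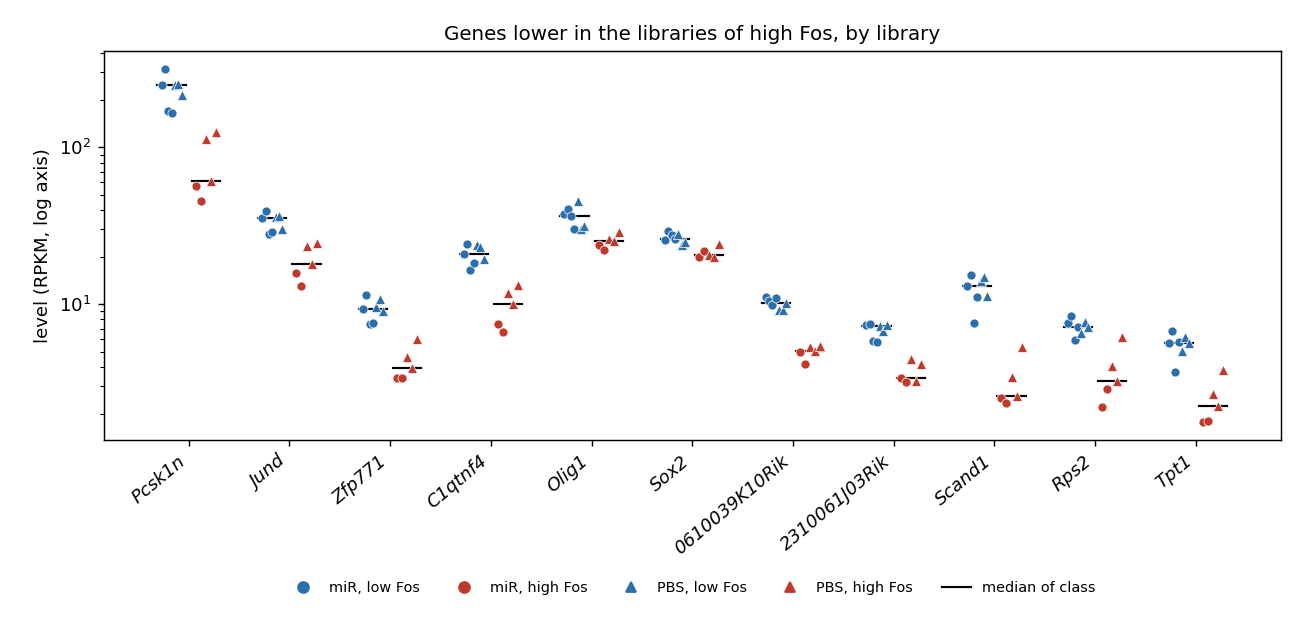
Level in RPKM (log axis) of 11 genes that were lower in the high-Fos libraries, for each of the 12 libraries, with symbols and colours as in the plot of the immediate early genes and bars for class medians. Pcsk1n falls from a median of 248 to 61.1 RPKM, while Olig1 and Sox2 show small shifts, with Sox2 overlapping at the border of the classes.

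Within each injection group the direction was the same for all called genes: 19 of 19 higher and 75 of 75 lower genes kept their sign in miR (2 against 4 libraries) and in PBS (3 against 3). Since all 12 libraries entered the main test, these agreements describe how its calls were shared between the groups. Over all 13272 tested genes, 6199 had equal signs in miR and in PBS. Npas4 differed by 2.73 within miR and 3.11 within PBS, Egr1 by 2.32 and 2.26, Fosb by 2.45 and 2.06, Btg2 by 2.40 and 1.99, Nr4a1 by 2.21 and 1.55, Arc by 1.40 and 1.55, and Dusp1 by 1.25 and 1.04. Each of these passed in both contrasts (limma adjusted p of 0.0153 or less). Junb differed by 1.31 and 1.57 without passing in either (adjusted p = 0.282 and 0.0790). Jund passed within miR (-1.15, adjusted p = 0.00571) and not within PBS (-0.63, adjusted p = 0.0614). The test of the difference between the groups gave an adjusted p of 0.243 for Jund.

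Over all genes, 90 passed within miR (0.678%), 9 higher (0.0678%) and 81 lower (0.61%). Within PBS 146 passed (1.1%), 102 higher (0.769%) and 44 lower (0.332%). In PBS the 3 high-Fos libraries are all of high Meg3, against 1 of the 3 low-Fos libraries. For 1 gene the difference by Fos class was unequal between the groups (0.00753%): 1700113A16Rik, a noncoding transcript named after its value was seen, showed -0.25 within miR and 0.47 within PBS (limma interaction, adjusted p = 0.0176). Its level was 10.7 RPKM in miR 2, 10.8 in miR 6, 17.3 in PBS 8, 17.8 in PBS 10 and 16.9 in PBS 12, against 11.6 to 13.5 RPKM in the low-Fos class. For Npas4, Egr1, Fosb, Btg2, Nr4a1, Arc and Dusp1 the adjusted p of the interaction was 0.313 or more.

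**Figure D4:**
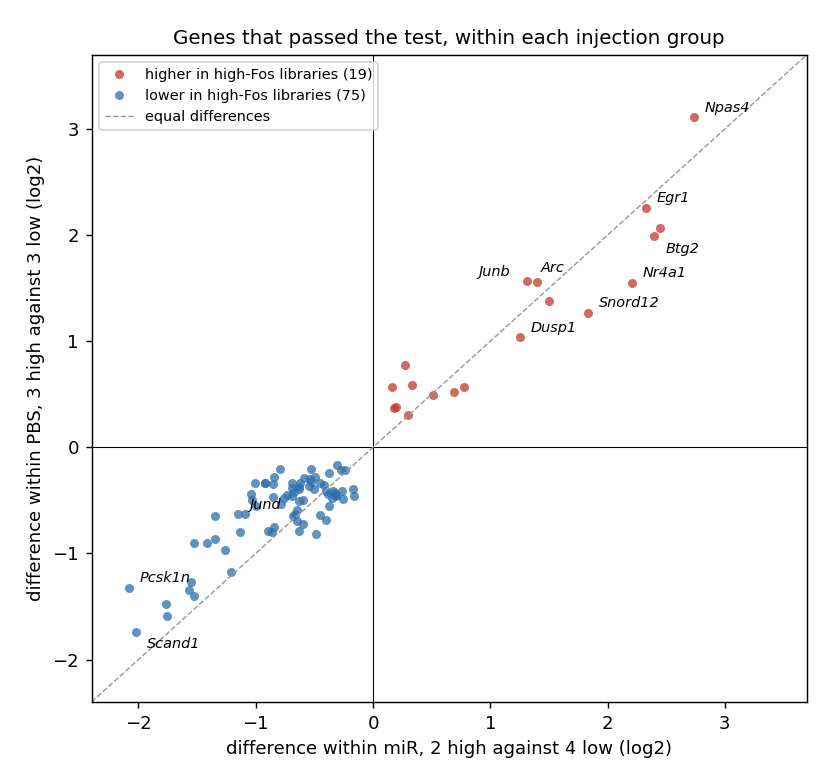
Difference by Fos class (log2 of RPKM + 0.5) within PBS against that within miR for the 94 genes that passed the test over all libraries; red is higher and blue is lower with Fos, and the dashed line marks equal differences. All 94 points lie in the quadrants of equal sign, with Npas4 at 2.73 and 3.11 and Scand1 at -2.02 and -1.74.

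The hormones of the nucleus did not pass. Of 21 tested hormones and co-released peptides none was called, 4 had an unadjusted p below 0.05 (13.3% of all tested genes did), and their median was -0.15. Their values ran from -1.28 to 0.29. Cck, named after its values were seen, passed without PBS 10 (-1.82, limma adjusted p = 0.045). Oxt, oxytocin, was at 1949 RPKM in miR 2, 1295 in miR 6, 2613 in PBS 8, 1714 in PBS 10 and 2197 in PBS 12, against 1626 to 3983 RPKM (median 3569). Among the low-Fos libraries PBS 7 alone reached into the high-Fos range, and the difference of -0.71 ± 0.22 (SE) did not pass (limma adjusted p = 0.212). Without PBS 7 it was -0.94 and passed (adjusted p = 0.00940). Avp, vasopressin, was at 595 and 505 RPKM in the 2 high-Fos miR libraries and at 1048 to 1071 RPKM in the 3 of PBS, against 372 to 1564 RPKM with low Fos (-0.19 ± 0.30, SE, adjusted p = 0.810). Crh, the releasing hormone of the stress axis, was at 10.1 to 18.7 RPKM against 5.32 to 19.6 RPKM (0.23 ± 0.24, SE, adjusted p = 0.695). Trh, the releasing hormone of the thyroid axis, was at 152 to 200 RPKM against 136 to 203 RPKM (0.10 ± 0.10, SE, adjusted p = 0.693). Gal, galanin, was at 14.2 to 26.9 RPKM against 22.3 to 49.1 RPKM (-0.54 ± 0.21, SE, adjusted p = 0.311).

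The 10 tested transcription factors of the nucleus gave no call, with a median of -0.05 and 3 at an unadjusted p below 0.05, against 13.3% of all tested genes. Otp, which specifies its neuroendocrine neurons, was at 18.7 RPKM in miR 2, 14.1 in miR 6, 22.9 in PBS 8, 15.9 in PBS 10 and 18.1 in PBS 12, against 17.5 to 38.0 RPKM (-0.59 ± 0.17, SE, limma adjusted p = 0.162). As with Oxt, PBS 7 was the lowest of the low-Fos class, and without it the difference was -0.75 and passed (adjusted p = 0.0165). Sim1, its partner in that lineage, showed -0.01 ± 0.17 (SE). Rora, also a thalamic gene, differed by -0.34 ± 0.13 (SE, adjusted p = 0.287).

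Hormone-response, clock and stress genes showed narrow ranges. None of 18 glucocorticoid-induced genes passed (median -0.02, 2 at an unadjusted p below 0.05, a smaller share than the 13.3% of all tested genes). Fkbp5, the cochaperone that rises with corticosterone, was at 5.67 to 6.41 RPKM against 5.74 to 6.92 RPKM (-0.08 ± 0.06, SE, limma adjusted p = 0.553). Sgk1, a kinase induced by glucocorticoids, showed -0.15 ± 0.11 (SE), Tsc22d3 0.13 ± 0.10 (SE), Klf9 -0.21 ± 0.08 (SE) and Errfi1 0.12 ± 0.05 (SE), with adjusted p of 0.288 or more. The receptor Nr3c1 was at 17.6 to 23.3 RPKM against 20.4 to 26.1 RPKM (-0.16 ± 0.07, SE, adjusted p = 0.330). None of 16 clock genes passed (median -0.03, 2 at an unadjusted p below 0.05). Per1, a clock gene that is also induced by activity, was at 8.80 to 13.9 RPKM against 8.45 to 11.6 RPKM (0.13 ± 0.10, SE, adjusted p = 0.609), Bhlhe41 showed -0.19 ± 0.07 (SE) and Arntl -0.17 ± 0.07 (SE). The 14 heat shock genes (median -0.02, 3 at an unadjusted p below 0.05) and the 14 hypoxia-responsive genes (median -0.03, 0 at an unadjusted p below 0.05) gave no call either. Their leading members were Hspa1a (-0.26 ± 0.10, SE), Dnajb1 (0.19 ± 0.08, SE), Ndrg1 (-0.21 ± 0.12, SE) and Vegfa (0.13 ± 0.10, SE).

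Markers of neighbouring tissue varied with Fos without passing. Among the lists of cell and tissue markers, that of thalamus and cortex had the largest shift, with a median of -0.41 over 13 tested genes, 12 of them with a negative value, 7 at an unadjusted p below 0.05 and none called. Over all 13272 tested genes, 6455 had a negative value and 13.3% an unadjusted p below 0.05. Tcf7l2, a thalamic transcription factor, was at 7.72 RPKM in miR 2, 2.53 in miR 6, 9.99 in PBS 8, 22.5 in PBS 10 and 4.19 in PBS 12, against 12.2 to 40.2 RPKM (median 18.9). PBS 10 alone of the high-Fos class lay inside the low-Fos range, and the difference was -1.54 ± 0.42 (SE, limma adjusted p = 0.143). Lhx9, another thalamic factor, showed -1.39 ± 0.36 (SE, adjusted p = 0.122). The summed level of the list was 184 to 386 RPKM with high Fos and 262 to 460 RPKM with low Fos. Slc17a6, the vesicular glutamate transporter of thalamic and hypothalamic excitatory neurons, belongs to the list of neuron markers and not to that of thalamus and cortex. It was at 30.3 to 52.7 RPKM against 54.3 to 87.9 RPKM, without overlap (-0.59 ± 0.15, SE, limma adjusted p = 0.103). Without PBS 10, Tcf7l2 (-1.88, adjusted p = 0.0387), Lhx9 (-1.66, 0.0406) and Slc17a6 (-0.69, 0.0476) passed. With the thalamus list as a covariate the differences of Npas4, Egr1 and Arc were 3.00, 2.16 and 1.40, and Junb, Klf4 and Ier2, at 1.31, 0.53 and 0.58, no longer passed (adjusted p = 0.182, 0.0894 and 0.173).

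The 14 neuron markers had a median of 0.02 and a summed level of 1717 to 1879 RPKM against 1574 to 1877 RPKM, with no call and 4 at an unadjusted p below 0.05 (13.3% over all tested genes). Slc17a6, given above, had the lowest value of this list (-0.59). It was the only member with every high-Fos library below all others. Nefl, a neurofilament, showed -0.24 ± 0.07 (SE, limma adjusted p = 0.184; -0.33 and 0.0260 without miR 2), and Gad1, which makes GABA, 0.47 ± 0.18 (SE, adjusted p = 0.288). Among 10 tested markers of neighbouring hypothalamic nuclei none passed and 0 had an unadjusted p below 0.05; Pmch, the melanin-concentrating hormone precursor of the lateral hypothalamus, was at 67.9 RPKM in miR 2 and at 0.928 to 3.64 RPKM in the other 4 high-Fos libraries, against 0.867 to 3.74 RPKM with low Fos, and Pomc showed -0.22 ± 0.13 (SE). The nuclear-retained RNAs with Leng8 and Snrnp70 had a median of 0.58, with 0.15 within miR and 0.88 within PBS; none of the 9 passed and 2 had an unadjusted p below 0.05. Their summed level was 269 to 828 RPKM against 277 to 1027 RPKM. Mirg (0.86 ± 0.32, SE, adjusted p = 0.287), Leng8 (0.71 ± 0.31, SE, adjusted p = 0.347) and Meg3 (0.58 ± 0.37, SE, adjusted p = 0.507) followed the division of the PBS libraries.

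In the oligodendrocyte list 1 of 13 genes passed, Olig1, a transcription factor of that lineage, at 23.9 RPKM in miR 2, 22.2 in miR 6, 26.1 in PBS 8, 25.1 in PBS 10 and 28.9 in PBS 12, against 30.3 to 45.4 RPKM (-0.51 ± 0.10, SE, limma adjusted p = 0.0419). All 13 members had a negative value (median -0.21), and 2 had an unadjusted p below 0.05. Over all 13272 tested genes, 6455 had a negative value, 13.3% an unadjusted p below 0.05, and 0.565% were called lower. The median of the list was -0.45 within miR, -0.02 within PBS and -0.11 with the thalamus covariate. Its summed level was 607 to 689 RPKM with high Fos and 451 to 1535 RPKM with low Fos. Olig2 showed -0.21 ± 0.10 (SE). Olig1 lost its call when any of 8 libraries was left out (adjusted p up to 0.161). The lists of astrocytes (14 tested, median -0.07, summed level 1833 to 2235 against 1678 to 2164 RPKM), microglia (12, -0.03, 196 to 221 against 176 to 229), endothelium (12, 0.03, 52.3 to 77.1 against 53.9 to 72.8), mural cells (6, 0.05, 36.1 to 57.6 against 35.2 to 44.8), choroid plexus with ependyma and meninges (11, 0.03, 211 to 279 against 207 to 269) and blood cells (4, 0.01, 37.9 to 56.8 against 29.9 to 85.0) held no called gene. Members of smallest p in these lists were Sox9 (-0.18) and Aldoc (0.15), Cd68 (0.18) and C1qc (-0.18), Cldn5 (-0.33) and Esam (0.28), Vtn (0.40) and Myl9 (0.27), Kl (-0.26) and Ccdc153 (0.20), and Hbb-b1 (0.11) and Hbb-b2 (0.11), near-identical copies that share reads. The part that the thalamic, nuclear RNA and oligodendrocyte levels have in the calls was not tested beyond the covariates and subsets given.

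**Figure D5:**
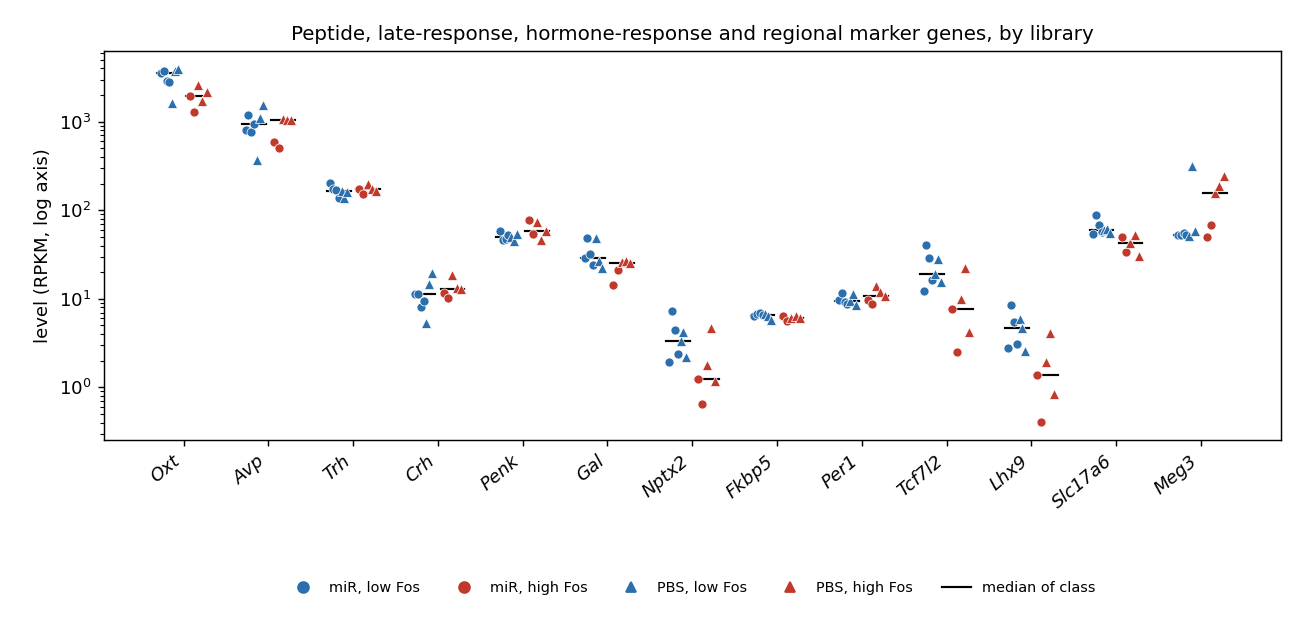
Level in RPKM (log axis) of hypothalamic peptides, a late activity gene, hormone-response and clock genes and regional markers, for each of the 12 libraries, with symbols and colours as in the plot of the immediate early genes and bars for class medians. None of these 13 genes passed the test; Tcf7l2 and Lhx9 are low in 4 of 5 high-Fos libraries, with PBS 10 the exception, and Meg3 separates 4 PBS libraries from the rest.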

How the data were processed

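Per the labels' protocols, 250 ng of RNA from each of the 12 punches went into a stranded single-end library of polyadenylated RNA, and the libraries shared 2 lanes. The authors deposited 1 table of RPKM values with 30399 RefSeq rows. Build mm9 and edgeR appear in the submitters' processing notes without a stated role. The aligner and the counter were not given in the sources used here. Depth was read from the steps of low values in 983 intronless olfactory receptor rows, separately for the 2 lanes, since each library's RPKM is a mean over both; low depth limits short and weak rows most. Whole reads were not restored for other rows, so no count model was used.

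Accessions supplied a name for 868 of the 913 rows that lack a symbol, and each of the 23260 genes was taken from its row with the highest mean. The deposited RPKM were analysed as log2(RPKM + 0.5) wherever the mean reached 1 RPKM, with limma 3.58.1 in R 4.3.3 (injection group as covariate, variance trend, 2-sided, Benjamini-Hochberg adjustment over all tested genes except Fos, threshold 0.05). Contrasts within miR and within PBS and their interaction came from a fit over the 4 combinations of group and Fos class, which share 1 estimate of the spread. The script was tested on simulated data. Python 3.11.15, pandas 2.3.3 and matplotlib 3.10.9 were used for tables and figures. GC content and transcript length came from GENCODE M21 transcripts matched by accession (98.0% of tested genes), and promoters from RefSeq (GRCm38.p6). A gene was counted as without intron where this length came near the genomic span of its deposited row. No intron annotation was read, and no coordinate was converted between builds. Rows that share reads were not separated.

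Named genes are Fos and Egr1; the 16 immediate early genes of smallest p; per direction the 10 called genes of smallest p; the 2 members of smallest p of each other list; and Avp, Oxt, Crh, Trh, Nr3c1, Fkbp5, Sgk1, Tsc22d3, Per1, Bdnf, Vgf and Meg3. Other genes were named after their values were seen, and the text says so or names them only within a count of their list. One member of the blood cell list is not reported here and was left out of that list's values. The members and lists were chosen with earlier results of these data known. Alternatives were pseudocounts of 0.1 and 1 RPKM, no minimum and one of 5 RPKM, median scaling, quantile normalization, no covariate, a nuclear RNA covariate, Fos as a continuous term, each border library moved to the other class, robust empirical Bayes, means over rows and each library left out. Chosen after seeing the data were the 8 libraries of Meg3 under 100 RPKM, a correction for GC content in 20 bins and a thalamus marker covariate. The series calls the animals biological replicates; the p-values measure the spread between these animals, which were sorted by a measured value and not assigned.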

Additional observations from a re-analysis of the deposited data

Results flagged for a closer look

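Outlying libraries were sought with Dixon's test in each Fos class for 77 genes and library values, 156 groups in all, and 13 were found; chance alone gives about 1 in 20. Among the immediate early genes, Fosb in miR 3 (0.636 RPKM) was far above the other low-Fos libraries, and so was Klf4 in PBS 11 (1.87 RPKM). PBS 9 stood apart in the low-Fos class in 5 genes: Meg3 (316 RPKM), Leng8 (38.3 RPKM), Mirg (13.9 RPKM) and Vegfa (14.7 RPKM) were high and Dnajb1 (19.5 RPKM) was low there. Slc17a6 in miR 3 (87.9 RPKM) was the highest of the low-Fos class. In the high-Fos class, miR 2 stood apart with Pmch (67.9 RPKM), Nefl (82.1 RPKM) and Slc2a3 (32.1 RPKM), PBS 10 with Nptx2 (4.67 RPKM) and PBS 12 with 4930413G21Rik (1.57 RPKM). The difference by Fos class was unequal between the injection groups for 1700113A16Rik, at -0.25 within miR and 0.47 within PBS (limma interaction, adjusted p = 0.0176).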

How the results depend on the processing

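The main count of 94 genes was 48 with no minimum level, 59 with one of 5 RPKM, 22 with Fos as a continuous term, 14 with PBS 10 counted as low, 1 with miR 3 counted as high, 146 within PBS, 58 in the libraries of low Meg3, 196 after GC correction and 40 with the thalamus covariate; leaving out 1 library gave 36 (without miR 6) to 92. The share of lower genes among the calls, 79.8% in the main test, was 50% with continuous Fos, 21.4% with PBS 10 as low, 90% within miR and 30.1% within PBS; scalings gave 77.1% and 76.1% and moved the median of all genes by less than 0.02. The 10 higher immediate early genes became 1 with miR 3 as high and 7 to 12 with a library left out. Of the leading genes, Egr1, Btg2, Arc, Fosb, Nr4a1 and Dusp1 lost their calls only with miR 3 as high, and Npas4 passed in all 30 alternatives. The 1 gene of the interaction became 3 with no minimum, 10 with the nuclear RNA covariate, 0 with either border library moved or with the thalamus covariate, and 0 to 430 with a library left out (430 without PBS 9, 242 without miR 5). The 90 genes within miR became 37 with no minimum, 7 and 0 with PBS 10 and miR 3 moved, 39 after GC correction, 34 with the thalamus covariate and 13 (without miR 2) to 263 (without miR 5). The 146 within PBS became 68 with no minimum, 0 and 44 with PBS 10 and miR 3 moved, 86 after GC correction and 33 (without PBS 8) to 1316 (without PBS 9). Where this left 2 or fewer libraries in a combination, a lone library was assumed to vary like the others. The causes of these shifts were not tested.

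Signs changed only for genes that never passed: Avp was 0.031 with miR 3 moved and 0.29 within PBS; Hbb-b1 and Hbb-b2 were each -0.019 within miR and in the libraries of low Meg3 and -0.015 with the thalamus covariate, and Hbb-b1 was -0.01463 and Hbb-b2 -0.0145 at the lowest with a library left out (0.26 at the highest for both); Per1 was -0.086 and Trh -0.043 within miR and in the libraries of low Meg3; Sgk1 was 0.058 with the thalamus covariate; Vegfa was -0.0019 with the nuclear RNA covariate; Crh was -0.033 to 0.39 with a library left out. No paired analysis was possible because replicate numbers 1 to 6 and 7 to 12 are not shared between the injection groups. Weak and short rows rest on few reads at this depth.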
